A study of Mus musculus with 10 samples.

Results

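The cyclic nucleotide cyclases, phosphodiesterases and kinases of the mouse lung were taken from the deposited gene table by type and name. The members are the protein-coding genes whose symbols begin with Pde followed by a number and letter, Adcy with a number, Gucy, Prkar or Prkac, or are Prkg1 or Prkg2. There were 52 such genes among 22046 protein-coding genes and 54532 genes in all. A pseudogene of Prkaca also had a matching name and was left out by its type. The 52 comprised 10 adenylyl cyclases, 9 guanylyl cyclase subunits, 25 genes with a phosphodiesterase name, 6 subunits of protein kinase A (PKA) and 2 kinases of the protein kinase G (PKG) family.

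Cyclic AMP is made by adenylyl cyclases downstream of receptors coupled to the stimulatory G protein, and its main effector is PKA, a tetramer of regulatory and catalytic subunits. Cyclic GMP is made by soluble guanylyl cyclase, the receptor of nitric oxide, and by membrane guanylyl cyclases, some of them the receptors of natriuretic peptides, and it acts largely through PKG. Phosphodiesterases (PDEs) break both nucleotides down, and in lung vessels both pathways relax smooth muscle, so that PDE5 inhibitors, stimulators of soluble guanylyl cyclase and prostacyclin analogs are used in pulmonary hypertension. By substrate, 24 members formed a cAMP arm, 18 a cGMP arm and 8 were dual-specificity PDEs. The other 2, Pde4dip and Pde6d, carry a phosphodiesterase name without being phosphodiesterases, since Pde4dip encodes the centrosome and Golgi protein myomegalin and Pde6d a carrier of prenylated proteins.

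All animals were wild-type C57BL/6J mice, and the study used pups of both sexes. In the increased pulmonary flow (IPF) group, a needle puncture on postnatal day 7 (P7) opened a fistula from the aorta into the adjacent caval vein in the abdomen, and sham pups had the same operation without the puncture. RNA of whole lungs was sequenced at P30 from 5 IPF and 5 sham mice. Values are FPKM, fragments scaled by gene length and library size, so that levels can be set side by side between genes.

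Between 15483046 and 19026843 reads per sample could be recovered from the FPKM values. The groups differed in more than the operation, because Xist lay at 26.8 to 43.2 FPKM in all 5 IPF samples and at 0.0301 to 0.0767 in all 5 sham samples, while 4 Y-linked genes were at 0 in every IPF sample. The 14 core circadian clock genes also divided the groups, with 13 past an adjusted p of 0.05 and a summed level of 93.8 to 171 FPKM in IPF against 303 to 360 in sham. Sex by these genes, clock state and operation therefore cannot be told apart in any comparison given here. Sham replicate 1 stood apart with 25486 genes above 0, against 22475 to 23575 in the other samples, and with the lowest summed level of alveolar type 2 markers (12805 FPKM against 16834 to 20245). IPF replicate 3 had a summed ciliated airway marker level of 69.2 FPKM, against 21.2 to 25.8 in the other IPF samples, and IPF replicate 5 a summed neutrophil marker level of 301 FPKM, against 52.9 to 74.2. No alveolar, endothelial, smooth muscle or fibroblast marker listed was at 0. In whole lung, fewer cells of a type and less RNA per cell cannot be told apart.

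The levels of the members spanned more than 4 orders of magnitude. Of the 52, 17 had a mean of at least 10 FPKM over the 10 samples, 33 of at least 1 FPKM, and 14 lay below 0.1 FPKM and were not tested. Prkar1a, which encodes the type I alpha regulatory subunit of PKA, had the highest level, with 118 ± 1.40 FPKM in IPF and 114 ± 6.00 in sham (SD, n = 5 each). Gucy1b1 and Gucy1a1, the beta 1 and alpha 1 subunits of soluble guanylyl cyclase, came next with means of 80.7 and 68.4 FPKM, followed by Pde5a at 48.0 and Prkaca at 45.3. The sample ranges of Gucy1b1 (67.5 to 99.96) and Gucy1a1 (52.4 to 81.0) overlapped, but within each of the 10 samples Gucy1b1 was the higher. Pde5a (40.3 to 57.1) spanned the Prkaca mean.

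**Figure D1:**
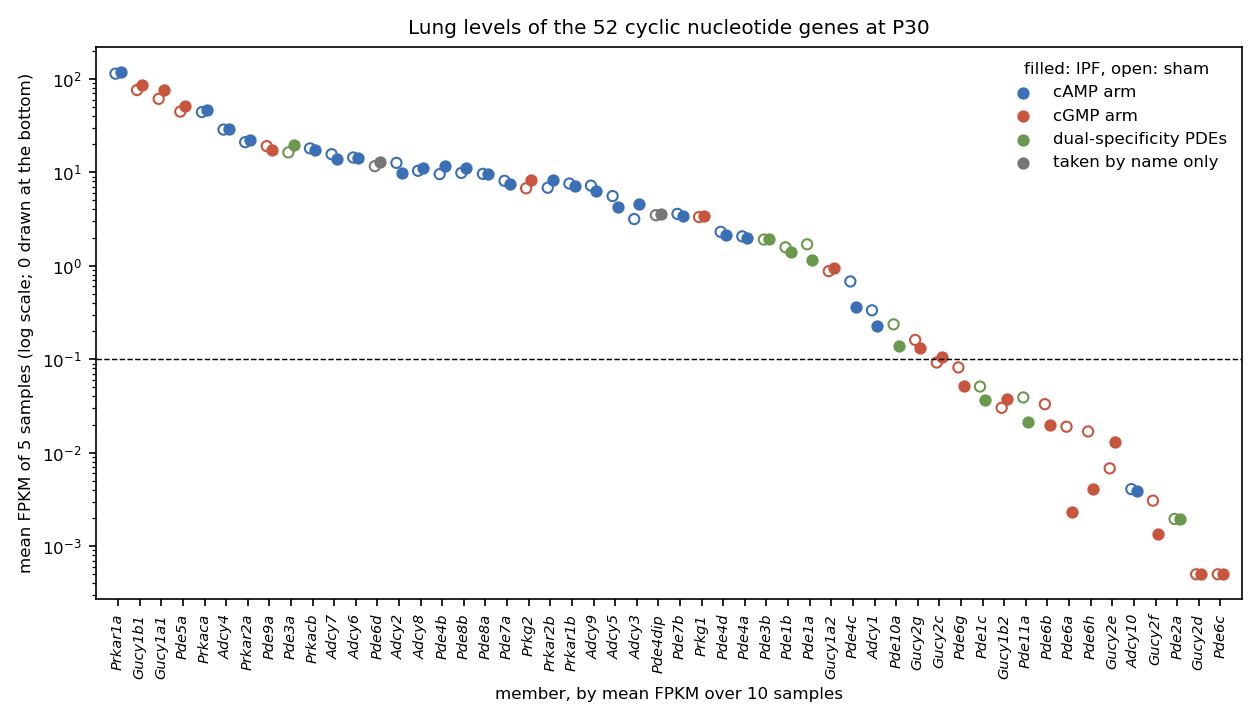
Mean FPKM of each of the 52 members in 5 sham (open) and 5 IPF (filled) lungs on a log axis, ordered by the mean over 10 samples and coloured by arm. The dashed line marks 0.1 FPKM, below which the 14 untested members lie, and members at 0 are drawn at the bottom edge.

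Within each family a few members held most of the summed FPKM. Among the 10 adenylyl cyclases, Adcy4 took 30.2% of the family's sum on average, Adcy7 15.4%, Adcy6 14.9%, Adcy2 11.7% and Adcy8 11.3%. In IPF alone Adcy8 (11.95%) stood above Adcy2 (10.5%) and Adcy6 (15.2%) above Adcy7 (14.9%). Among the 23 phosphodiesterase genes, the cGMP-specific Pde5a took 35.1% and Pde9a 13.5%, the dual-specificity Pde3a 13.1% and the cAMP-specific Pde4b 7.82%. In IPF alone Pde3a (13.9%) stood above Pde9a (12.4%), and in sham alone Pde8b (7.50%) and Pde8a (7.32%) above Pde4b (7.30%). Pde2a is in this pool near 0, but its value does not measure its expression, as given below. The phosphodiesterase shares are therefore those of the pool without a measure of Pde2a. Gucy1b1 (53.8%) and Gucy1a1 (45.4%) made up nearly all of the sum of the 9 Gucy genes. That sum leaves out membrane guanylyl cyclases with other names, such as Npr1, whose level is given below. Prkaca took 71.9% of the PKA catalytic sum and Prkar1a 76.1% of the regulatory sum.

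IPF was compared with sham by limma on log2(FPKM + 0.1) over the 20448 genes with a mean of at least 0.1 FPKM, with Benjamini-Hochberg adjustment over all of them. The log2 difference of a gene is its fitted log2 fold change, IPF minus sham, and every adjusted p is from this test unless another is named. Adcy3 and Adcy2, both adenylyl cyclases, were the members that passed. An adjusted p under 0.05 was reached by 2 of 38 members (5.26%), against 5.85% of all genes tested. This share is near the background, so the count is not a result about the members as a set. Without IPF replicate 3 the count was 4 (10.5%, against 5.57% of all genes), and with array weights, which weigh down the more variable samples, it was 6 (15.8%, against 8.55%). Adcy3 was higher in IPF, where 3.71% of all genes were higher, and Adcy2 lower, where 2.14% were. None of the 38 passed the study's further limit of an absolute log2 fold change above 1, which 1.14% of all genes passed together with the adjusted p. At an unadjusted p under 0.05 there were 10 members, against 19.5% of all genes, and none of the 10 had a log2 difference above 1 in size. Members whose 5 IPF and 5 sham samples did not overlap numbered 4 (10.5%), against 7.29% of all genes. They were Adcy3, higher in IPF (4.52% of all genes were so placed), and Adcy2, Pde1a and Adcy1, lower in IPF (2.77%). Sham replicate 1 was the highest sham sample in 21 of the 38 members, and without it Adcy3 and Adcy2 were again the 2 that passed.

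The arms were described by their counts and medians, with no test between them. The cAMP arm (23 tested) lay at a median of -0.03, with 10 positive and 13 negative values and both called members. The cGMP arm (8 tested) had a median of 0.14, with 6 positive and 2 negative values and none called by limma, 2 of its members having an unadjusted p under 0.05. That median was 0.085 without sham replicate 4, 0.090 without sham replicate 2 and 0.053 with no filter on low values, where more genes entered it. The 5 dual-specificity PDEs tested had a median of -0.16, with none called and 2 at an unadjusted p under 0.05. The median over all members was 0.015 and that over all genes tested 0.0016. In size, the median change of the members (0.15) was close to that of all genes (0.17).

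**Figure D2:**
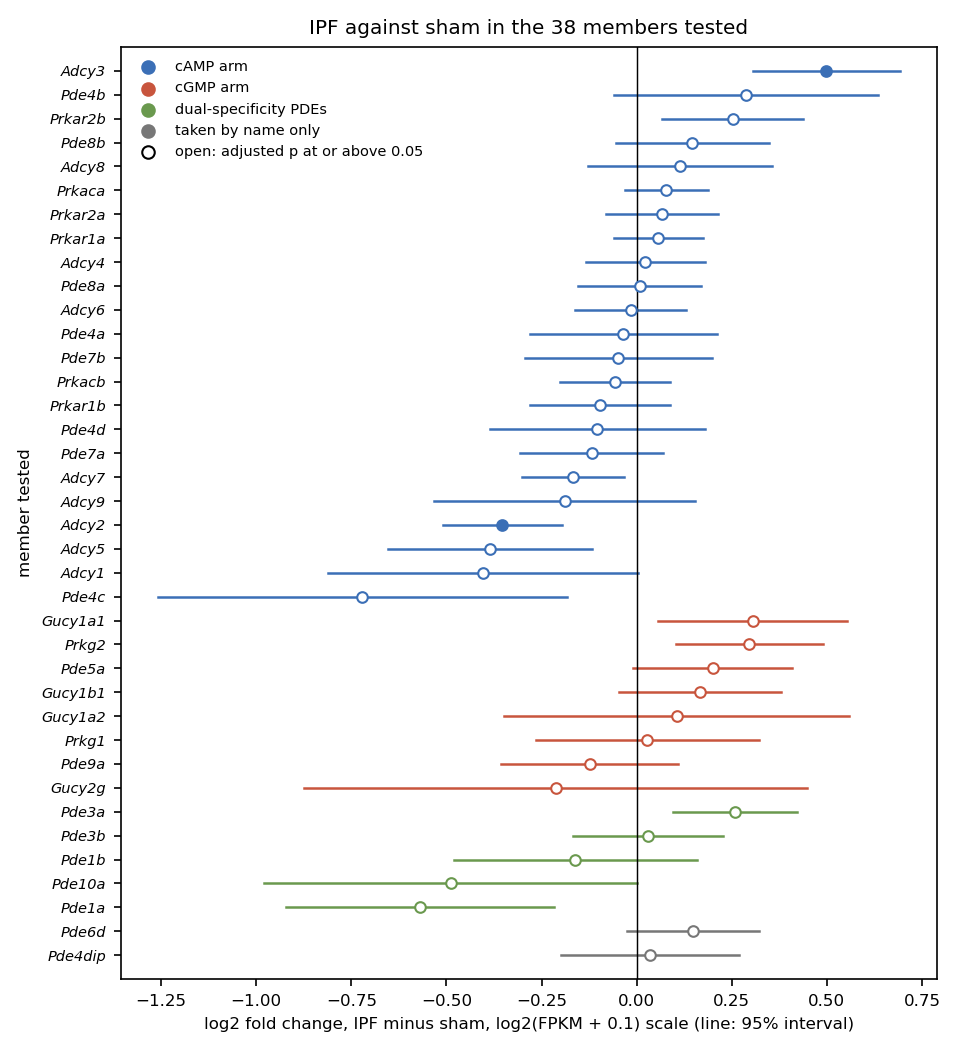
Log2 fold change of IPF minus sham on the log2(FPKM + 0.1) scale for the 38 members tested, with 95% intervals as lines, by arm (colour). Filled points mark an adjusted p under 0.05, reached by Adcy3 and Adcy2, and the intervals of most other members cross 0.

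Among the adenylyl cyclases, Adcy3 rose and Adcy2 fell. Adcy3 encodes a cyclase best known from the cilia of olfactory neurons and also present in primary cilia and other tissues. Its gene (ENSMUSG00000020654) lies at chr12:4133103-4213525 on the plus strand of GRCm38. IPF replicates 1 to 5 had 4.75, 3.90, 4.82, 5.08 and 4.07 FPKM, and sham replicates 1 to 5 had 3.29, 2.90, 3.08, 3.18 and 3.34 FPKM. Every IPF sample was above every sham sample. The log2 difference was 0.50 (SE 0.088, 95% interval 0.30 to 0.69, adjusted p = 0.0080), and the exact two-sided permutation test gave p = 0.00794, the smallest that the 252 assignments allow. The call held under every alternative tried, and without sham replicate 1 the log2 difference was 0.51 (adjusted p = 0.017). The gene shares 17522 bases with Cenpo on the opposite strand, whose level was 0.887 ± 0.0665 FPKM in IPF and 1.01 ± 0.133 in sham (SD, n = 5 each; log2 difference -0.16, adjusted p = 0.54).

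Adcy2, a cyclase stimulated by G protein beta-gamma subunits and by protein kinase C, moved the other way. Its gene (ENSMUSG00000021536) lies at chr13:68620043-68999541 on the minus strand. IPF replicates 1 to 5 had 10.3, 10.3, 8.73, 10.3 and 9.70 FPKM, and sham replicates 1 to 5 had 14.2, 11.5, 12.8, 12.6 and 12.0 FPKM. Every IPF sample was below every sham sample, with IPF replicate 3 lowest and sham replicate 1 highest. Its log2 difference was -0.35 (SE 0.071, 95% interval -0.51 to -0.20, adjusted p = 0.015, exact permutation p = 0.00794). It was -0.31 both without sham replicate 1 (adjusted p = 0.027) and without IPF replicate 3 (adjusted p = 0.028), and the call held under every alternative tried. As a description, the level of Adcy2 was 2.20 ± 0.320 times that of Adcy3 in IPF and 4.00 ± 0.269 times in sham (SD, n = 5 each).

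The promoter windows of both called cyclases are shown beside those of the soluble guanylyl cyclase subunit Gucy1b1 and of the PKA catalytic gene Prkaca, members of high level from each arm. Each window runs from 250 bases before to 50 after a RefSeq transcription start on GRCm38.p6 and is printed on the gene's strand. Capitals mark TGACG, the core letters of the cAMP response element, or CACGTG, the E-box that clock proteins bind, in either orientation. Where RefSeq gave more than 1 start, the window nearest the annotated start is shown.
Adcy3, chr12:4133147-4133446, plus strand: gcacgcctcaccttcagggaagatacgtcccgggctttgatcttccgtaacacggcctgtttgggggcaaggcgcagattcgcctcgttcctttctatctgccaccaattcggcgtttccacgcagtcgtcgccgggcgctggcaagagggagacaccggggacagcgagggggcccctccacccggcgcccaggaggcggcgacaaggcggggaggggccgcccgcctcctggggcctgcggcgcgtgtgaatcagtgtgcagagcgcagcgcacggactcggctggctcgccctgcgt
Adcy2, chr13:68999492-68999791, minus strand: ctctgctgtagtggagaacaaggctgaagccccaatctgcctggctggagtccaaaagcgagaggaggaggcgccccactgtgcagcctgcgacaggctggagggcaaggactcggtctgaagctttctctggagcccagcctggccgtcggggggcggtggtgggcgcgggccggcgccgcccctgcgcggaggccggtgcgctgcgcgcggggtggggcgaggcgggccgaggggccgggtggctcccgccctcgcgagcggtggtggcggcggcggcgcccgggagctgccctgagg
Gucy1b1, chr3:82074662-82074961, minus strand: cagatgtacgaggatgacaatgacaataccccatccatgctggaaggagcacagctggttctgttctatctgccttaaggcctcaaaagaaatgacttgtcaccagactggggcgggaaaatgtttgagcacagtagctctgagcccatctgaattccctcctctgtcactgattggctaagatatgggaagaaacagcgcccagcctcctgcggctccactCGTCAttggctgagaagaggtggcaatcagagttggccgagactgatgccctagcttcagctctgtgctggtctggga
Prkaca, chr8:83972728-83973027, plus strand: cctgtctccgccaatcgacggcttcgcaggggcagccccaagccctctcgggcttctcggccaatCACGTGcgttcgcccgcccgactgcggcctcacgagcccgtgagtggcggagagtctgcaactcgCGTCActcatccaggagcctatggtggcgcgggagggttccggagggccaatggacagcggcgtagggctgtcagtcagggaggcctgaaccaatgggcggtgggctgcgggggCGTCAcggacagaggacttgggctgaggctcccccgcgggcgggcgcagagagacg
The Adcy3 and Adcy2 windows held neither motif, the Gucy1b1 window held 1 match and the Prkaca window 3. The Adcy2 window had 75.0% G and C and 32 CG pairs, the Adcy3 window 68.7% and 33, and the Gucy1b1 window 52.3% and 6. RefSeq windows were found for 41 of the 52 members, 82 windows in all. TGACG occurred in 23.2% of the members' windows and in 20.8% of all 32851 windows, and CACGTG in 7.32% and 7.15%. A match describes the letters of a window and is not evidence of binding.

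The other 7 adenylyl cyclases tested did not pass the adjusted threshold. Adcy5, a calcium-inhibited cyclase, had 4.25 ± 0.672 FPKM in IPF and 5.57 ± 0.743 in sham (SD, n = 5 each; log2 difference -0.39, adjusted p = 0.098). Of the alternatives, the replicate block alone brought it under the threshold (adjusted p = 0.046). Adcy1, a calmodulin-stimulated cyclase known mainly from neurons, did not overlap between groups but was low, with 0.190 to 0.286 FPKM in IPF and 0.303 to 0.361 in sham (log2 difference -0.40, adjusted p = 0.26). It passed only without the variance trend (adjusted p = 0.041), and with a pseudocount of 1 the difference was -0.12. Adcy7 had a log2 difference of -0.17 (adjusted p = 0.15), and Adcy6, Adcy8 and Adcy9 had values of -0.02, 0.11 and -0.19. The most abundant cyclase, Adcy4, had 29.2 ± 2.87 FPKM in IPF and 28.6 ± 1.35 in sham (SD, n = 5 each), a log2 difference of 0.02 with a 95% interval of -0.13 to 0.18. Of the 9 cyclases tested, 3 had positive and 6 negative values. Their summed level, Adcy10 included, was 93.7 ± 5.45 FPKM in IPF and 97.9 ± 5.89 in sham (SD, n = 5 each), and the sample ranges overlapped.

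None of the 6 PKA subunits passed the adjusted threshold. Prkar1a (ENSMUSG00000020612, chr11:109649405-109669656) had 118, 118, 120, 119 and 116 FPKM in IPF replicates 1 to 5 and 106, 112, 114, 113 and 123 in sham replicates 1 to 5. All 5 IPF values lay within the sham range. Its log2 difference was 0.06 (95% interval -0.06 to 0.17, adjusted p = 0.61), and it had the smallest spread within groups of the 33 members with at least 1 FPKM (pooled SD 0.055 on the log2 scale, against a median of 0.14 for those members). Prkar2b, the type II beta regulatory subunit, had 8.19 ± 0.917 FPKM in IPF and 6.84 ± 0.516 in sham (SD, n = 5 each; log2 difference 0.25, adjusted p = 0.11). The catalytic genes had log2 differences of 0.08 for Prkaca (95% interval -0.03 to 0.19) and -0.06 for Prkacb (-0.20 to 0.09), and the regulatory genes Prkar2a and Prkar1b of 0.07 and -0.10.

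None of the 8 cAMP-specific phosphodiesterases passed either. Pde4d (ENSMUSG00000021699, chr13:108449948-109953461), whose product belongs to the PDE4 family inhibited by rolipram and roflumilast, had 2.19, 1.82, 1.93, 2.33 and 2.35 FPKM in IPF replicates 1 to 5 and 2.78, 2.08, 2.02, 1.94 and 2.71 in sham replicates 1 to 5. The groups overlapped, with sham replicates 1 and 5 above all other samples. Its log2 difference was -0.10 (95% interval -0.39 to 0.18, adjusted p = 0.71), and from -0.16 (without sham replicate 4) to -0.035 (without sham replicate 1) with 1 sample left out. Pde4b, the most abundant of the 8 by the mean over 10 samples, had 11.8 ± 2.72 FPKM in IPF and 9.57 ± 1.71 in sham (SD, n = 5 each). It had the widest spread within groups of the members with at least 1 FPKM (pooled SD 0.28 on the log2 scale). In sham alone, the means of Pde8b (9.85 FPKM) and Pde8a (9.63 FPKM) were higher. Pde4c had the largest negative log2 difference of any member tested (-0.72, adjusted p = 0.12) at a mean of 0.520 FPKM, from 22 to 93 reads per sample. This rank depends on the pseudocount, since with a pseudocount of 1 Pde4c was at -0.29 and Pde1a at -0.34. Pde4a, Pde7a, Pde7b, Pde8a and Pde8b had log2 differences from -0.12 to 0.15.

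In the cGMP arm, the soluble guanylyl cyclase genes had higher means in IPF, but none passed the adjusted threshold. Gucy1a1 (ENSMUSG00000033910, chr3:82092427-82145789) and Gucy1b1 (ENSMUSG00000028005, chr3:82032006-82074689) encode the subunits of the nitric oxide receptor and lie 17737 bases apart on the minus strand. Gucy1a1 had 80.2, 80.7, 57.7, 78.7 and 81.0 FPKM in IPF replicates 1 to 5 and 72.4, 52.4, 61.9, 55.4 and 63.3 in sham replicates 1 to 5. IPF replicate 3 lay among the sham samples, and the other 4 IPF samples were above all sham samples. IPF minus sham, the log2 difference was 0.31 (SE 0.11, 95% interval 0.06 to 0.55, adjusted p = 0.15). Without IPF replicate 3 it was 0.40 (adjusted p = 0.030). That sample had the highest ciliated airway and smooth muscle marker sums of all samples. Its pericyte marker sum was 202 FPKM, the lowest of the IPF samples (223 to 243 in the others). The sham range of that sum was 195 to 217 FPKM. The part of these cells in the value was not tested. With array weights and all 10 samples the log2 difference was 0.39 (adjusted p = 0.035). With any 1 sample other than IPF replicate 3 left out, Gucy1a1 did not pass (adjusted p = 0.10 to 0.29).

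Gucy1b1 had 86.7, 88.5, 68.5, 84.0 and 99.96 FPKM in IPF replicates 1 to 5 and 80.5, 70.8, 81.3, 67.5 and 79.2 in sham replicates 1 to 5. Here too 4 IPF samples were above all sham samples and IPF replicate 3 was not. On the log2 scale the difference was 0.17 (95% interval -0.05 to 0.38, adjusted p = 0.38), and 0.24 without IPF replicate 3 (adjusted p = 0.11). It was 0.11 without IPF replicate 5 (adjusted p = 0.55) and 0.13 without sham replicate 4 (adjusted p = 0.56). The ratio of Gucy1a1 to Gucy1b1 was 0.885 ± 0.0558 in IPF and 0.804 ± 0.0615 in sham (SD, n = 5 each), with overlapping samples. Gucy1a2, the alpha 2 subunit, was at 0.908 FPKM on average (log2 difference 0.10, adjusted p = 0.83).

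Pde5a (ENSMUSG00000053965, chr3:122728947-122859374), the cGMP-specific enzyme that sildenafil inhibits, had 55.2, 56.3, 42.1, 57.1 and 46.6 FPKM in IPF replicates 1 to 5 and 47.4, 40.3, 43.3, 42.4 and 49.6 in sham replicates 1 to 5. IPF replicates 1, 2 and 4 were above all sham samples, and IPF replicates 3 and 5 were not. The log2 difference was 0.20 (95% interval -0.01 to 0.41, adjusted p = 0.28). It passed in 1 of the alternatives, that without IPF replicates 3 and 5 (0.34, adjusted p = 0.031), which was chosen after seeing the data. Pde9a, a cGMP-specific enzyme of high affinity, had 17.5 ± 2.22 FPKM in IPF and 19.0 ± 2.41 in sham (SD, n = 5 each; log2 difference -0.12, adjusted p = 0.57). The ratio of Pde5a to Gucy1b1 was 0.606 ± 0.0820 in IPF and 0.589 ± 0.0403 in sham (SD, n = 5 each).

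The PKG genes did not pass the adjusted threshold. Prkg1 (ENSMUSG00000052920, chr19:30567551-31765033), the PKG of smooth muscle and platelets, had 3.56, 3.24, 2.77, 3.13 and 4.25 FPKM in IPF replicates 1 to 5 and 4.16, 2.82, 3.30, 2.86 and 3.46 in sham replicates 1 to 5. The groups overlapped (log2 difference 0.03, 95% interval -0.26 to 0.32, adjusted p = 0.94), and the sign of the change turned under some alternatives. Prkg1 holds the gene Cstf2t on its opposite strand, at 13.96 ± 0.769 FPKM in IPF and 12.5 ± 0.691 in sham (SD, n = 5 each). Prkg2, the membrane-bound PKG known from intestine and cartilage, had 8.30 ± 0.784 FPKM in IPF and 6.74 ± 0.660 in sham (SD, n = 5 each). Its IPF samples 1, 2, 4 and 5 were above all sham samples (log2 difference 0.30, adjusted p = 0.076), and the change passed with array weights (0.36, adjusted p = 0.019) and without IPF replicate 3 (0.34, adjusted p = 0.048). With 1 sample left out the adjusted p of Prkg2 reached 0.17, without IPF replicate 4. IPF replicate 3 was the lowest IPF sample in 5 of the 8 cGMP-arm members tested.

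Among the dual-specificity PDEs, Pde1a and Pde3a had the smallest adjusted p-values. Pde1a (ENSMUSG00000059173, chr2:79834453-80129458), a phosphodiesterase stimulated by calcium and calmodulin, had 1.08, 0.828, 0.897, 1.30 and 1.598 FPKM in IPF replicates 1 to 5 and 1.77, 1.65, 1.66, 1.73 and 1.68 in sham replicates 1 to 5. Every IPF sample was below every sham sample, with IPF replicate 5 closest to them. Its log2 difference was -0.57 (SE 0.16, 95% interval -0.92 to -0.22, adjusted p = 0.065, exact permutation p = 0.00794) at 83 to 178 reads per sample. It passed without IPF replicate 5 (-0.69, adjusted p = 0.011), with array weights (-0.59, adjusted p = 0.028) and by limma voom on the recovered reads (-0.61, adjusted p = 0.022). With any 1 other sample left out it did not pass (adjusted p = 0.086 to 0.14), nor with no filter on low values (adjusted p = 0.11).

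Pde3a (ENSMUSG00000041741, chr6:141249269-141507448), the cGMP-inhibited enzyme of heart, platelets and vascular smooth muscle, had 21.5, 17.9, 19.2, 20.2 and 18.7 FPKM in IPF replicates 1 to 5 and 17.95, 15.7, 14.4, 15.8 and 17.7 in sham replicates 1 to 5. All IPF samples but replicate 2 were above all sham samples. IPF minus sham, the log2 difference was 0.26 (SE 0.074, 95% interval 0.09 to 0.42, adjusted p = 0.070), and 0.29 without sham replicate 1 (adjusted p = 0.053). Of the alternatives, it passed with array weights alone (adjusted p = 0.021), and without IPF replicate 4 the adjusted p was 0.15. Pde3b and Pde1b had log2 differences of 0.03 and -0.16, and Pde10a, known from the striatum, was at 0.187 FPKM on average (log2 difference -0.49, adjusted p = 0.26; by voom -0.75, adjusted p = 0.048). Of the genes taken by name alone, Pde6d was at 12.2 FPKM on average and Pde4dip at 3.54, with log2 differences of 0.15 and 0.03 (adjusted p = 0.34 and 0.90).

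**Figure D3:**
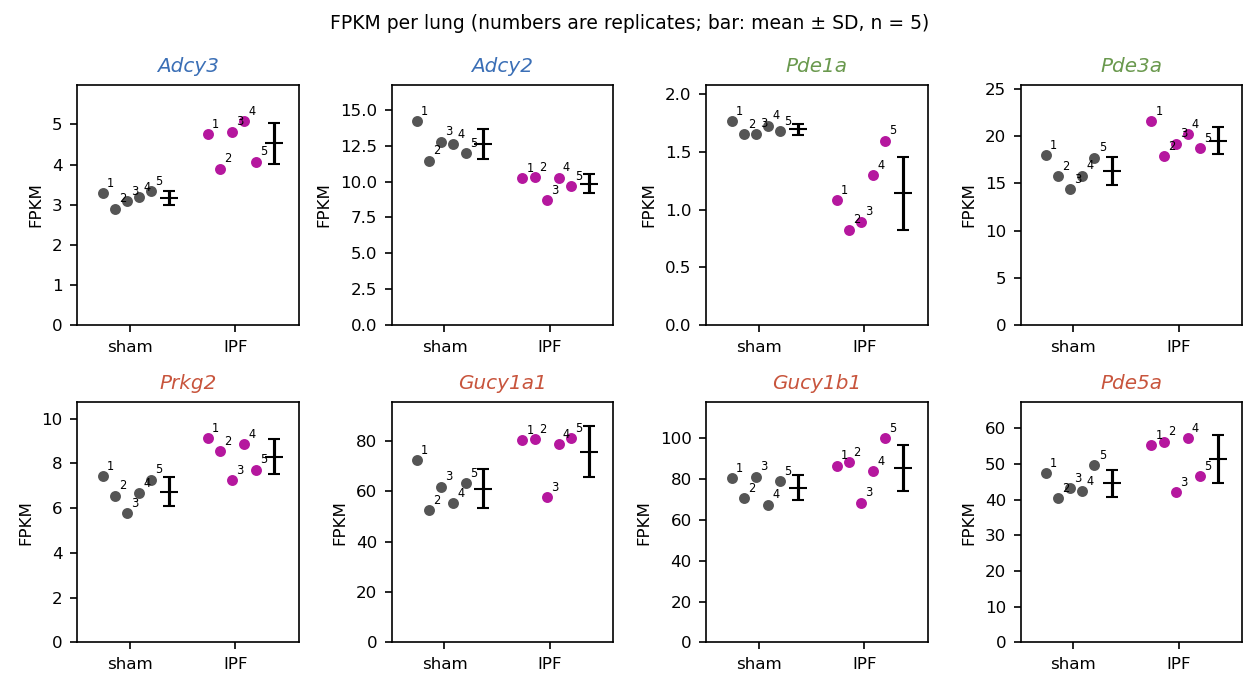
FPKM of 8 members in each sham (grey) and IPF (purple) lung on linear axes from 0, with replicate numbers beside the points and the mean ± SD of 5 samples as bars. Adcy3, Adcy2 and Pde1a do not overlap between groups, while in Gucy1a1, Gucy1b1 and Pde5a IPF replicate 3 lies among the sham samples.

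The 14 members below 0.1 FPKM included all 5 photoreceptor PDE6 subunits (Pde6a, Pde6b, Pde6c, Pde6g and Pde6h), which serve phototransduction in the retina, and 4 of the 5 membrane guanylyl cyclases taken by the name rule. Gucy2d and Pde6c were at 0 in all 10 samples, where a count of 0 allows up to 3 reads per library. Gucy2c, the intestinal guanylin receptor, was closest below the limit at 0.0988 FPKM (3 to 12 reads per sample), and Gucy2g closest above it at 0.147 FPKM (3 to 19 reads). Adcy10, the bicarbonate-sensitive soluble cyclase, had at most 2 reads in a sample. Gucy1b2, Gucy2e, Gucy2f, Pde1c and Pde11a were the others of low level. Pde2a, the cGMP-stimulated phosphodiesterase, had 2 reads over all 10 samples, but it overlaps Gm45837 on the same strand, also near 0, with 91129 shared bases. Reads of overlapping genes cannot be assigned here, so this value does not measure the expression of Pde2a.

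The genes around the members were described from 5 lists of receptors, effectors and targets. Of 94 such genes tested, members left out, 17 passed an adjusted p of 0.05 (18.1%, against 5.85% of all genes), 9 higher and 8 lower in IPF. List by list, in the order given below, the share was 16.7%, 12.5%, 36.8%, 11.1% and 13.3%. Of all genes, 3.71% were higher and 2.14% lower. Of the 17, 9 kept an adjusted p under 0.05 with any single sample left out. The count was 10 without IPF replicate 1, 11 without IPF replicate 2, 9 without IPF replicate 4, 11 without sham replicate 2 and 10 without sham replicate 3. The lists were chosen with earlier results of these data known, and Per1 is also a clock gene.

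Of 24 receptor and G protein genes, 4 were higher in IPF, and the median log2 difference was 0.09. Adrb3, the beta 3 receptor best known from fat, rose from 2.75 ± 0.435 to 5.63 ± 1.01 FPKM (SD, n = 5 each; log2 difference 1.00, adjusted p = 0.0026). Vipr2, a receptor of vasoactive intestinal peptide, rose from 3.98 ± 0.613 to 7.61 ± 1.27 FPKM (SD, n = 5 each; log2 difference 0.91, adjusted p = 0.0036). Neither receptor overlapped between groups. Ptgir, the prostacyclin receptor, rose as well (log2 difference 0.64, adjusted p = 0.015). Adora2a, an adenosine receptor, rose (0.76, adjusted p = 0.036), but passed with no single sample left out other than IPF replicate 5 (adjusted p = 0.055 to 0.094 in the other 9 fits). Gnas, the stimulatory G protein itself, had 4.61 ± 0.832 FPKM in IPF and 4.52 ± 0.138 in sham (SD, n = 5 each). Overlap with other genes was looked up for the members only, so its effect on the level of Gnas was not checked.

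Among 32 cAMP effectors, anchors and inhibitors tested, 1 was higher and 3 were lower, with a median of -0.04. Akap7, a PKA anchoring protein, rose (log2 difference 0.45, adjusted p = 0.0034). Sik1, a salt-inducible kinase, fell (-0.55, adjusted p = 0.0030), as did the anchoring protein Akap13 (-0.56, adjusted p = 0.018) and Rapgef4, a cAMP-activated exchange factor (-0.35, adjusted p = 0.031). Akap13 did not pass without IPF replicate 4 (adjusted p = 0.051), nor Rapgef4 without IPF replicate 1, 2 or 4 or sham replicate 1, 2 or 3 (0.061 to 0.074).

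Of 19 genes known to be induced by cAMP and CREB, 2 were higher and 5 lower, with a median of -0.10, and the list also holds the members Pde4b and Pde4d. Per1 (log2 difference -1.77), the orphan receptors Nr4a3 (-1.14) and Nr4a2 (-0.59), the ligand Areg (-0.76) and Sik1 fell, while the small GTPase Gem (0.34) and Junb (0.31) rose, with adjusted p from 0.0030 to 0.048. Areg did not pass without IPF replicate 1, 2 or 4 or sham replicate 3 or 5 (adjusted p = 0.054 to 0.070), and Junb passed only without IPF replicate 2 or sham replicate 4 (0.051 to 0.12 in the other 8 fits). The summed clock level that moves with the groups is given above, and its part in these values was not tested.

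On the cGMP side, 1 of 9 input genes tested passed, with a median of 0.18. Nostrin, which binds endothelial nitric oxide synthase, rose from 41.2 ± 2.53 to 49.5 ± 2.83 FPKM (SD, n = 5 each; log2 difference 0.26, adjusted p = 0.027), but did not pass without IPF replicate 1, 2 or 4 or sham replicate 1, 2, 3 or 5 (adjusted p = 0.051 to 0.071). Nos3, the endothelial synthase itself, had 6.24 ± 0.848 FPKM in IPF and 6.51 ± 0.460 in sham (SD, n = 5 each). The natriuretic peptide receptor gene Npr1, a membrane guanylyl cyclase outside the name rule, was at 37.9 ± 1.98 and 33.4 ± 1.39 FPKM (SD, n = 5 each; log2 difference 0.18, adjusted p = 0.074). Of 15 cGMP effectors tested, Vasp, a PKG substrate, rose (0.24, adjusted p = 0.037) and Ppp1r12b, a myosin phosphatase subunit, fell (-0.37, adjusted p = 0.031). With samples left out in turn, Vasp passed only without sham replicate 4 (adjusted p = 0.052 to 0.093 in the other 9 fits), and Ppp1r12b did not pass without IPF replicate 1, 2, 4 or 5 or sham replicate 2 or 3 (0.050 to 0.076).

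**Figure D4:**
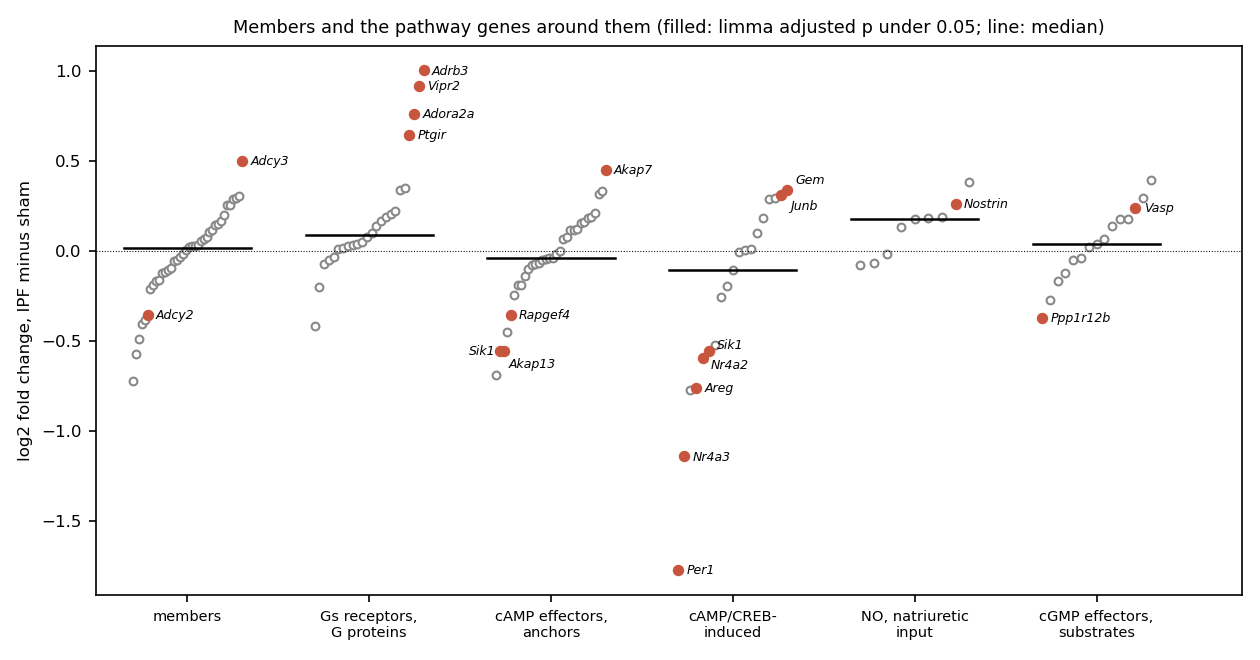
Log2 fold changes of IPF minus sham for the 38 members tested and for the 5 lists of pathway genes, each gene a point in rising order and each median a line. Filled and named points passed an adjusted p of 0.05. Most of the members lie within 0.5 of 0, and the receptor and CREB-induced lists reach further.

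Markers of other cell types moved with the groups beside these values. For comparison, 3.71% of all genes tested were higher and 2.14% lower at an adjusted p under 0.05, and 19.5% had an unadjusted p under 0.05. The summed level of 9 T, B and NK cell markers was 24.5 to 35.4 FPKM in IPF and 13.0 to 20.6 in sham, with 5 of the 9 higher. That of 8 endothelial markers was 1247 to 1395 FPKM against 1071 to 1142, with only Cldn5 past the adjusted threshold. Of 7 neutrophil markers none passed by limma, with 5 at an unadjusted p under 0.05, although their sums were 52.9 to 301 FPKM in IPF and 15.2 to 72.7 in sham. The sums of smooth muscle markers overlapped (139 to 262 and 166 to 209 FPKM, with 1 of 10 higher and 1 lower), as did those of pericyte markers (202 to 243 and 195 to 217 FPKM, with 1 of 8 lower) and of fibroblast markers (693 to 861 and 752 to 908 FPKM, with 1 of 8 higher). No marker of the alveolar type 1, alveolar type 2, ciliated airway, macrophage, atrial cardiomyocyte or adipocyte lists passed by limma, with 3, 1, 1, 2, 0 and 0 at an unadjusted p under 0.05. The part of these cells in the members' values was not tested.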

How the data were processed

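Whole-lung RNA of 10 mice was analysed. The authors used Fastp for trimming, HISAT2 for alignment and StringTie for quantification, and the deposited table holds FPKM values in 1 column per mouse. The paper names GRCm39 and the KAPA mRNA HyperPrep kit, the sample records name NEBNext Ultra, and the submitters' processing notes list GRCm38, mm10, hg38 and Bowtie 0.12.2. The deposited gene positions are those of GRCm38. Fold changes on the log2 scale were computed here from the deposited FPKM values.

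In each sample, 100.0% of the products of FPKM and gene length were whole multiples of the value of 1 read (tolerance 0.01), so the reads could be recovered. Genes with a mean of at least 0.1 FPKM entered a fit by limma 3.58.1 (R 4.3.3, empirical Bayes with a variance trend) on log2(FPKM + 0.1) without covariates. A fold change on this scale understates that of low genes. Replicates are separate mice. Exact permutation tests of single genes were two-sided. The fit was tested on simulated data. The members and lists were chosen with earlier results of these data known.

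Per-sample values are given for members past an adjusted p of 0.05, for those without overlap between groups and a mean of at least 1 FPKM, and for Pde5a, Gucy1a1, Gucy1b1, Prkg1, Pde3a, Pde4d and Prkar1a. Genes of the pathway lists are named where they passed, at most 6 a list, and Junb, Gnas, Nos3 and Npr1 were added after their values were seen. A gene of the receptor list is not reported here and is not in its counts. Alternatives were pseudocounts of 1 and 0.01, array weights, quantile normalization, no filter, a filter at a mean of 1 FPKM, scaling by the median of ratios, no variance trend, voom on recovered reads, the replicate block and each sample left out. Counting was not stated to use strand, so reads of the 29 members that overlap another gene, 6 of them a protein-coding gene, cannot be separated from it.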

Additional observations from a re-analysis of the deposited data

Results flagged for a closer look

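Of 76 groups of 5 samples (38 members in IPF and in sham), 3 held a sample farther from its group than Dixon's test at 95% allows, and chance alone flags about 1 in 20 groups. Gucy1a1 was at 57.7 FPKM in IPF replicate 3, against 78.7 to 81.0 in the other IPF samples. Pde7a, a cAMP-specific phosphodiesterase, was at 8.83 FPKM in IPF replicate 5, against 6.81 to 7.38 in the others. Pde7b was at 4.66 FPKM in sham replicate 5, against 3.23 to 3.58 in the others.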

How the results depend on the processing

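Of the 38 members tested, Adcy3 and Adcy2 had an adjusted p under 0.05 under every alternative tried, and 10 members, these included, had one under some alternative. The count of such members, 2 in the main analysis, was 6 with array weights (15.8%, against 8.55% of all genes), 4 by voom on the recovered reads (10.5% against 7.16%, or 1464 genes), 5 without IPF replicates 3 and 5 (13.2% against 6.84%), 4 without sham replicate 1 and IPF replicate 3 (10.5% against 3.96%), and 2 to 4 with 1 sample left out, 4 being without IPF replicate 3 (10.5% against 5.57%). The pairs of samples were chosen after seeing the data. No member passed both limits under any alternative. The count of members without overlap between groups, 4, was 2 after quantile normalization and 4 to 7 with 1 sample left out. The share of all genes without overlap is given for the main analysis only (7.29%), and groups of fewer samples overlap less easily. These other counts therefore have no background and are not a result about the members. The sign turned under some alternative in 10 members, Prkg1, Prkar1a, Adcy4, Adcy6, Pde8a, Pde7b, Pde4a, Pde3b, Pde4dip and Gucy1a2. Prkg1 turned after quantile normalization (-0.0027) and ranged from -0.054 to 0.11 with 1 sample left out, and Prkar1a turned after quantile normalization (-0.019), and the causes were not tested. With a pseudocount of 1, which shrinks changes of low genes, the differences were -0.12 for Adcy1, -0.12 for Pde10a, -0.29 for Pde4c and -0.34 for Pde1a. The median of the cAMP arm ranged from -0.07 to 0.03 and that of the cGMP arm from 0.09 to 0.20 with 1 sample left out. That of the cGMP arm, 0.14, was 0.053 with no filter on low values, 0.21 with array weights and 0.24 without sham replicate 1 and IPF replicate 3. That of the cAMP arm, -0.03, was 0.015 with array weights. The count of all genes at an adjusted p under 0.05, 1196, was 748 to 1619 with 1 sample left out (788 without IPF replicate 2, 748 without IPF replicate 4, 797 without sham replicate 3). The count past both limits, 233, was 74 with a pseudocount of 1 and 154 under a filter at a mean of 1 FPKM, where fewer genes were tested. The pathway count of 17 was 10 without sham replicate 1 and IPF replicate 3, and 9 to 18 with 1 sample left out. The deviations of same-numbered IPF and sham samples correlated at -0.020 to 0.095, all under the limit of 0.1 set for using the pairing, so it was not used. As a hint from the data, 6 of 10 samples correlated best with their own number, each among 5 samples of the other group. With the replicate block, 3 members (Adcy5 added) and 1045 genes had an adjusted p under 0.05. Depth limits the members below 1 FPKM, where a sample held as few as 3 reads in a gene tested.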
